A study of Mus musculus with 9 samples.

Results

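Transcripts of 8 nucleic acid demethylase genes were followed in CD8 T cells of mouse spleen: Tet1, Tet2, Tet3, Fto, Alkbh1, Alkbh3, Alkbh5 and Alkbh7. They were taken by symbol from a count table of 55011 genes, and all 8 were found. A gene was tested where it passed a filter on low counts, which 10235 genes and 7 of the 8 passed. Tet1 did not pass it. Each of the 7 held at least 7.86 CPM (counts scaled to a common library total) in every library, so that none passed through a single group.

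The cells were naive CD8 T cells of wild-type (WT) mice, stimulated for 6 h by plate-bound anti-CD3 and anti-CD28 at 4 µg/mL. One group received 20 mM D-2HG with the stimulus, one received 20 mM L-2HG, and the control group was stimulated without either compound, with 3 libraries per group. D-2HG and L-2HG are mirror-image forms of 2-hydroxyglutarate, and D-2HG is the form made by mutant isocitrate dehydrogenase in some tumours. Strain, age and sex of the mice, and the origin of the replicates (animals or cultures), are not given in the sources used here, so the spread behind each p-value is that of these samples and may be technical.

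The members belong to the dioxygenases that use iron and 2-oxoglutarate, a metabolite that 2-hydroxyglutarate resembles and competes with at some of these enzymes. TET enzymes oxidise methylated cytosine in DNA, the first step of active DNA demethylation. FTO and ALKBH5 remove the methyl group of m6A, a common mark of messenger RNA, while ALKBH1 and ALKBH3 act on other methylated bases of nucleic acids. In CD8 T cells of mice, loss of Tet2 is known to favour memory cells after infection. The counts measure RNA, not the activity of these enzymes.

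Gene counts totalled 562627 (L-2HG replicate 2) to 5731885 (control replicate 3) per library. The libraries also differed in measures of RNA and background. The satellite-like predicted genes Gm10800 and Gm10801 took 3.79 to 17.0% of counts with D-2HG, 6.71 to 24.4% with L-2HG and 0.910 to 5.35% in control. Control replicate 2 had the highest share among the controls. Genes of olfactory and other sensory receptors, which T cells do not use, held 679 to 1037 CPM with D-2HG, 1141 to 2963 CPM with L-2HG and 186 to 745 CPM in control, over 1428 genes. Mitochondrially encoded transcripts took 0.992 to 1.87%, 1.19 to 1.83% and 2.23 to 3.06% of counts in the same order. Against control, the exact permutation p of the satellite share was 0.2 for D-2HG and 0.1 for L-2HG, and that of the mitochondrial share 0.1 for each compound (two-sided, where 3 against 3 cannot go below 0.1). The summed level of 6 CD8 T cell markers was 2279 to 2640 CPM with D-2HG, 2130 to 3187 CPM with L-2HG and 2648 to 4338 CPM in control. Of these, Cd8b1, Cd3e, Cd3g and Trac fell and Thy1 rose with D-2HG, and Trac fell and Thy1 rose with L-2HG. Cd4 was at most 1.35 CPM in any library. In the same order of groups, the 5 B cell markers summed to 131 to 132, 132 to 191 and 172 to 312 CPM, with no marker at 0 in any group. The 4 dendritic cell markers summed to 10.6 to 19.5, 14.4 to 22.5 and 5.13 to 8.58 CPM, with none at 0. Of these Zbtb46, the 1 marker tested, was at 9.97 ± 1.96 CPM with D-2HG, 13.1 ± 1.74 CPM with L-2HG and 6.03 ± 1.19 CPM in control (SD, n = 3), and rose with L-2HG (edgeR adjusted p = 0.0382). Of the B cell markers Ighm fell with both compounds (edgeR adjusted p = 0.0114 with D-2HG and 0.0490 with L-2HG). The 5 myeloid markers summed to 4.72 to 6.66, 5.04 to 7.02 and 4.19 to 6.05 CPM, with 1 of them at 0 with D-2HG and 2 in control. The 2 NK cell markers reached at most 3.74 CPM and the 2 erythroid markers at most 7.15 CPM in any library, with both erythroid markers at 0 with D-2HG. In such bulk samples, fewer cells of a type and less RNA per cell cannot be told apart, and the part of these measures in the results was not tested.

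Per length of exon, the ALKBH transcripts were the more abundant members and the TET and Fto transcripts the less abundant. Without scaling by length the order differed, with mean CPM over all libraries of 167 for Alkbh1, 121 for Alkbh5, 81.7 for Tet3 and 70.7 for Tet2. Mean CPM was 53.6 for Fto, 40.2 for Alkbh3, 13.8 for Alkbh7 and 2.73 for Tet1. In control cells the mean level was 29.1 ± 3.70 reads per kb of exon (scaled as CPM) for Alkbh1, 18.1 ± 4.46 for Alkbh7, 16.9 ± 1.49 for Alkbh3 and 16.8 ± 3.03 for Alkbh5 (SD, n = 3). On the same scale, control levels were 3.32 ± 0.65 for Tet3, 3.10 ± 0.701 for Tet2, 3.02 ± 0.525 for Fto and 0.133 ± 0.103 for Tet1. Alkbh7, Alkbh3 and Alkbh5 did not differ from each other in control beyond their spread, and neither did Tet3, Tet2 and Fto. With D-2HG, levels per length were 26.1 ± 1.28 for Alkbh1, 23.7 ± 3.33 for Alkbh5, 9.68 ± 1.5 for Alkbh3 and 8.02 ± 0.33 for Alkbh7. They were 5.26 ± 0.564 for Tet3, 4.78 ± 0.747 for Fto and 4.14 ± 0.38 for Tet2. By mean, Alkbh7 stood lowest of the 4 ALKBH members with D-2HG, where the lowest Alkbh3 library was at 8.01. In control it was not told apart from Alkbh3 and Alkbh5. With L-2HG the ALKBH levels were 20.9 ± 2.23 for Alkbh1, 20.0 ± 6.16 for Alkbh5, 14.2 ± 1.91 for Alkbh7 and 11.6 ± 1.02 for Alkbh3. The L-2HG levels of the others were 6.10 ± 0.612 for Tet3, 5.34 ± 0.141 for Tet2 and 4.54 ± 1.46 for Fto.

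**Figure D1:**
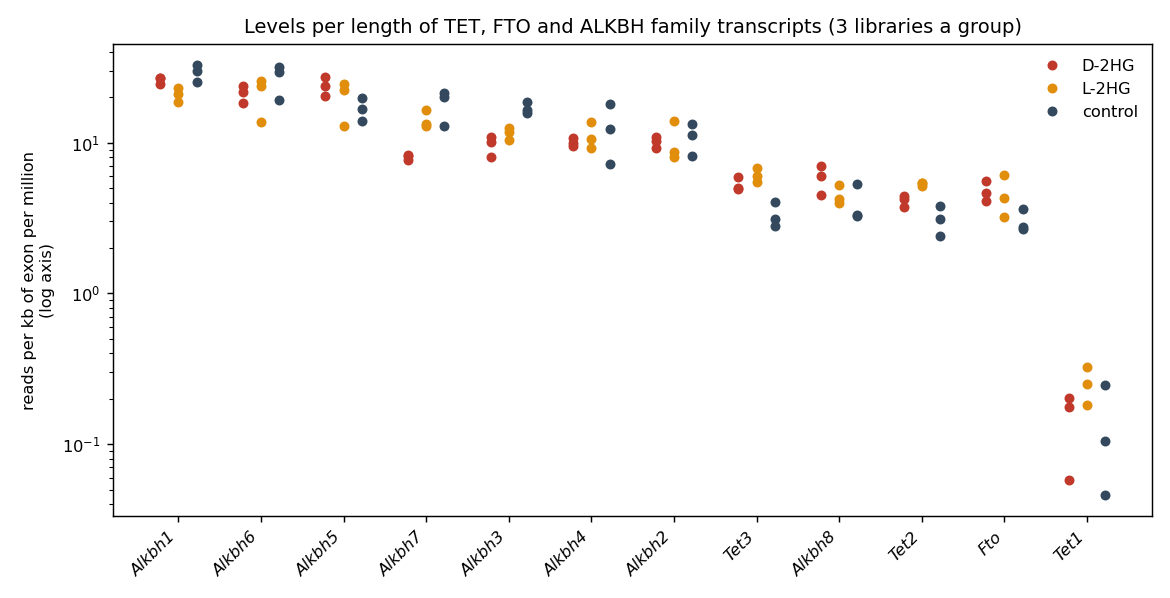
Reads per kb of exon, scaled as CPM (log axis), of the 8 members and of 4 further ALKBH genes, ordered by their mean over 9 libraries, with 1 point per library and D-2HG, L-2HG and control in that order at each gene. Tet1 lies at or below 0.326 in every library, and the other genes lie between 2.39 and 32.5.

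The first comparison asked which demethylase transcripts differ between cells stimulated with D-2HG and stimulated control cells. Tet3 and Fto rose by about 1.59-fold each, and Alkbh3 and Alkbh7 fell, to 0.575 and 0.435 of the control level. So 4 of the 7 tested members passed the threshold, 2 in each direction, where 22.3% of all tested genes passed it (11.8% higher and 10.5% lower). A gene passed at an adjusted p under 0.05 in edgeR's quasi-likelihood test, adjusted over all tested genes by Benjamini-Hochberg. The second comparison asked the same of L-2HG. Tet2 and Tet3 rose by 1.74-fold and 1.85-fold, 2 of 7 members, where 17.9% of all tested genes passed (9.48% higher and 8.38% lower), and none was lower. At an unadjusted p under 0.05 edgeR had 3 members higher and 2 lower with L-2HG, while DESeq2 called 2 higher and 1 lower and limma-voom 3 in each direction. With D-2HG, DESeq2 called 1 higher and 2 lower and limma-voom 4 higher and 2 lower. Over all genes, limma-voom called 5615 with D-2HG and 5174 with L-2HG, of the 10235 that pass the same filter. DESeq2 called 2205 and 2106 over all genes. The share of all genes at an unadjusted p under 0.05 is not given here. The median log2 fold change over the 7 was 0.43 with D-2HG and 0.22 with L-2HG, against 0.04 and 0.05 over all tested genes. Among all called genes, 52.9% were higher with D-2HG and 53.1% with L-2HG. With library totals as the scaling these shares were 68.6% and 74.3%, and with DESeq2 size factors 43.8% and 36.2%, while the calls of Tet3, Alkbh3 and Alkbh7 with D-2HG and of Tet2 and Tet3 with L-2HG passed under each. CPM ranges did not overlap with control for 5 of 7 members with D-2HG (40.0% of all tested genes, with 20.7% higher and 19.3% lower). With L-2HG this held for 4 of 7 (31.2% of all tested genes, with 16.4% higher and 14.8% lower). The comparisons with control share the 3 control libraries.

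**Figure D2:**
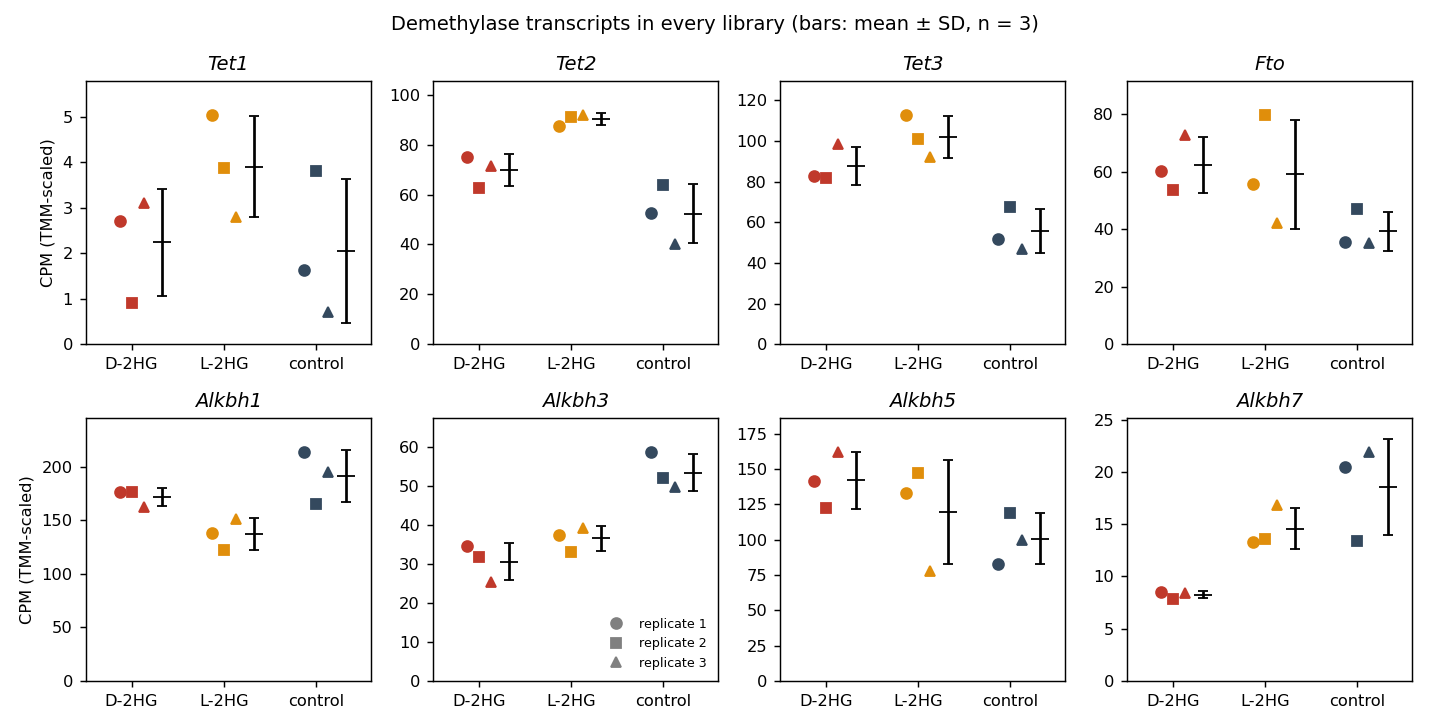
CPM (linear axis from 0, scaled totals) of each member in the D-2HG, L-2HG and control libraries, left to right, with 1 symbol per library and the mean ± SD (n = 3) beside it. Tet3 points of both compounds lie at or above 81.8 CPM and control points at or below 67.7 CPM, while Alkbh3 points of both compounds lie at or below 39.3 CPM and control points at or above 49.7 CPM.

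The sequences just upstream of the 5 members that passed in a comparison are shown because these transcripts moved in different directions and CpG dinucleotides are the sites at which TET enzymes act. Each is the 250 bases before the start of transcription in RefSeq's annotation of build GRCm38.p6, on the strand of the gene, 5′ to 3′, with CpG dinucleotides in capitals. All 8 members matched a RefSeq promoter entry by symbol.
Tet2: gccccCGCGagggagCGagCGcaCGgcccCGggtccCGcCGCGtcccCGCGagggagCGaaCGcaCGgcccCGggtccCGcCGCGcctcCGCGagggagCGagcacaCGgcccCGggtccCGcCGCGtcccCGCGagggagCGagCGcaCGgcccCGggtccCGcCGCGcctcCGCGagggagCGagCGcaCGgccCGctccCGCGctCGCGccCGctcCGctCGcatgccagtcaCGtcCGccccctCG
Tet3: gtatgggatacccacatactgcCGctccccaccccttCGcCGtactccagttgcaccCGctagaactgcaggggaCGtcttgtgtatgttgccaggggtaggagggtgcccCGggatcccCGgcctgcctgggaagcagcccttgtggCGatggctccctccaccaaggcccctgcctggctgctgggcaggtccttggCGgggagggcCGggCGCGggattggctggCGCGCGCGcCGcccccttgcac
Fto: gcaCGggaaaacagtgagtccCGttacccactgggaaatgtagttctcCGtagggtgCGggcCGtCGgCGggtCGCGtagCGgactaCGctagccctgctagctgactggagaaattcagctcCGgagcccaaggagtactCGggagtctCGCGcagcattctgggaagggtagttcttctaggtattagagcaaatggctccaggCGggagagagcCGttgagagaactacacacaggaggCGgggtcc
Alkbh3: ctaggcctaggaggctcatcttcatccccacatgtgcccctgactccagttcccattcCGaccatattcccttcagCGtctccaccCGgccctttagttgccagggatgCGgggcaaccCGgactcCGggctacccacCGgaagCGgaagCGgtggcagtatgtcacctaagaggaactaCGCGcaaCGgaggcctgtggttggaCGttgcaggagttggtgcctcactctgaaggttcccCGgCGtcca
Alkbh7: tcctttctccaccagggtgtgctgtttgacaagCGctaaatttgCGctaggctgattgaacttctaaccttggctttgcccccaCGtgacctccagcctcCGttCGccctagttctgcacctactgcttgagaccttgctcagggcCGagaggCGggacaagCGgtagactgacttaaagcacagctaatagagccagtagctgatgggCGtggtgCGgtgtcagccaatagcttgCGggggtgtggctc
They lie at chr3:133544391-133544640 (minus strand, Tet2), chr6:83441679-83441928 (minus strand, Tet3), chr8:91313275-91313524 (plus strand, Fto), chr2:94010731-94010980 (minus strand, Alkbh3) and chr17:56997089-56997338 (plus strand, Alkbh7). Those of Tet2 and Tet3 lie inside the GENCODE gene spans given below, whose starts are further upstream. The Tet2 window held 51 CpG and 83.6% G and C, and only 0.0670% of 32851 mouse windows of this length held as many CpG. The windows of Fto, Tet3, Alkbh3 and Alkbh7 held 18, 17, 15 and 11 CpG, against a median of 6 over all windows. The GC box GGGCGG, searched on both strands, was in the windows of Tet2 and Tet3 and in 32.7% of all windows. The letters CCAAT, on either strand, were in the windows of Tet3 and Alkbh7 and in 33.8% of all windows. The letters CCGGAAG, bound by ETS factors, were in the Alkbh3 window among these 5 and in 6.91% of all windows. Members that were not called held such letters too: the GC box in Tet1 and Alkbh5, CCAAT in Alkbh5 and CCGGAAG in Alkbh1. These matches describe the letters only, and methylation was not measured.

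Tet3 was higher with both compounds. Its gene (identifier ENSMUSG00000034832) lies on chromosome 6 from 83362373 to 83459084 on the minus strand of mm10, with 16695 bp of exons in GENCODE M21. Tet3 was at 82.9, 81.8 and 98.6 CPM in D-2HG replicates 1, 2 and 3, at 113, 101 and 92.2 CPM in L-2HG replicates 1, 2 and 3, and at 51.7, 67.7 and 47.0 CPM in control replicates 1, 2 and 3. All 6 libraries with a compound lay above the 3 controls, and the highest control was replicate 2. The log2 fold change was 0.67 ± 0.21 with D-2HG (SE; 95% interval 0.24 to 1.10; edgeR adjusted p = 0.0280) and 0.89 ± 0.21 with L-2HG (0.45 to 1.33; edgeR adjusted p = 0.0150). With no count filter the adjusted p by edgeR was 0.360 with D-2HG and 0.180 with L-2HG, and with counts thinned to the smallest library it was 0.0814 and 0.107.

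Tet2, the family member most often mutated in blood cancers, rose with L-2HG and was intermediate with D-2HG. The gene (ENSMUSG00000040943) lies on chromosome 3 from 133463679 to 133545139, minus strand, with 16870 bp of exons. Tet2 was at 75.1, 62.7 and 71.5 CPM in D-2HG replicates 1, 2 and 3, at 87.4, 91.3 and 91.7 CPM in L-2HG replicates 1, 2 and 3, and at 52.7, 63.9 and 40.2 CPM in control replicates 1, 2 and 3. The L-2HG libraries lay above all others, and D-2HG replicate 2 lay below control replicate 2. The log2 fold change with L-2HG was 0.80 ± 0.22 (SE; 95% interval 0.35 to 1.25; edgeR adjusted p = 0.0219). It was lost with no count filter (edgeR adjusted p = 0.297) and with the groups compared alone (0.0582). With D-2HG it was 0.43 (-0.01 to 0.87) and did not pass (edgeR adjusted p = 0.138).

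Tet1, the TET gene known for its role in germ and embryonic stem cells, was close to the limit of detection. The gene (ENSMUSG00000047146) lies on chromosome 10 from 62804570 to 62908996, minus strand. It held 8, 4 and 7 counts in the D-2HG libraries, 14, 2 and 6 in the L-2HG libraries and 7, 8 and 4 in the control libraries. A background was predicted from the reads per base of exon in the sensory receptor genes, times the 15457 bp of Tet1 exon. The prediction was 8.19, 8.22 and 7.38 reads with D-2HG, 8.55, 2.03 and 17.9 reads with L-2HG and 4.41, 4.34 and 3.12 reads in control. Tet1 counts thus were below, near or a few reads above that background in every library, and no fold change is given. Tet2 and Tet3 made up nearly all of the TET signal per length. Tet3 took 55.1 ± 2.92% of it with D-2HG, 52.1 ± 2.77% with L-2HG and 50.9 ± 2.44% in control (SD, n = 3), ranges that overlap between the groups. The same prediction came to 2.44 to 5.00% of the Tet2 and Tet3 counts with D-2HG, 2.95 to 9.94% with L-2HG and 1.28 to 3.53% in control.

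Of the m6A erasers, Fto rose with D-2HG. FTO was the first RNA demethylase of this mark to be described and is also known for the link of its gene to body weight. The gene (ENSMUSG00000055932) lies on chromosome 8 from 91313525 to 91668439, plus strand, with 13031 bp of exons. Fto was at 60.2, 53.7 and 72.8 CPM in D-2HG replicates 1, 2 and 3, at 55.7, 79.6 and 42.1 CPM in L-2HG replicates 1, 2 and 3, and at 35.7, 47.2 and 35.1 CPM in control replicates 1, 2 and 3. Every D-2HG library lay above every control, while L-2HG replicate 3 lay below control replicate 2. The log2 fold change with D-2HG was 0.67 ± 0.24 (SE; 95% interval 0.18 to 1.16; edgeR adjusted p = 0.0472), near the threshold. The call was lost in 13 of 21 alternatives. Among them were no count filter (edgeR adjusted p = 0.384), thinning (0.126), library totals (0.0503), DESeq2 size factors (0.0605), subtraction of the predicted background (0.0511) and DESeq2's Wald test (0.0670), with the satellite term and 6 fits without 1 library given below. With L-2HG the log2 difference was 0.53 (0.02 to 1.05) and did not pass (edgeR adjusted p = 0.124). In L-2HG replicate 3 the predicted background came to 16.7% of the Fto counts, against at most 4.65% in the other libraries.

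Alkbh5, the other m6A eraser, did not pass in either comparison. The gene (ENSMUSG00000042650) lies on chromosome 11 from 60536381 to 60558512, plus strand. Alkbh5 was at 142, 122 and 162 CPM in the D-2HG libraries, 133, 148 and 77.7 CPM in the L-2HG libraries and 83.0, 119 and 99.9 CPM in the control libraries. The D-2HG libraries lay above the controls by a narrow gap, and L-2HG replicate 3 was the lowest of all 9. The log2 difference was 0.50 (95% interval 0.02 to 0.98) with D-2HG and 0.22 (-0.27 to 0.72) with L-2HG (edgeR adjusted p = 0.114 and 0.506).

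Alkbh3 fell with D-2HG. ALKBH3 repairs methylated bases in single-stranded DNA and RNA. The gene (ENSMUSG00000040174) lies on chromosome 2 from 93980550 to 94010807, minus strand, with 3159 bp of exons. Alkbh3 was at 34.5, 31.9 and 25.3 CPM in D-2HG replicates 1, 2 and 3, at 37.4, 33.0 and 39.3 CPM in L-2HG replicates 1, 2 and 3, and at 58.7, 52.0 and 49.7 CPM in control replicates 1, 2 and 3. The 3 controls lay above all 6 libraries with a compound, and control replicate 2 lay between the other controls. The log2 fold change was -0.80 ± 0.21 with D-2HG (SE; 95% interval -1.24 to -0.36; edgeR adjusted p = 0.0159). With L-2HG it was -0.52 (-0.99 to -0.06) and did not pass (edgeR adjusted p = 0.0944), although the CPM ranges did not overlap.

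Alkbh7 had the largest log2 fold change of the members in size. ALKBH7 is a mitochondrial protein of the family that is known for a role in programmed necrosis. The gene (ENSMUSG00000002661) lies on chromosome 17 from 56997339 to 56999322, plus strand, with 1029 bp of exons. Alkbh7 was at 8.46, 7.86 and 8.44 CPM in D-2HG replicates 1, 2 and 3, at 13.3, 13.6 and 16.8 CPM in L-2HG replicates 1, 2 and 3, and at 20.5, 13.3 and 21.9 CPM in control replicates 1, 2 and 3. The D-2HG libraries lay below all others, and control replicate 2 lay among the L-2HG libraries. These levels rest on 19 to 35 counts per library with D-2HG, 7 to 37 with L-2HG and 28 to 123 in control. The log2 fold change was -1.20 ± 0.29 with D-2HG (SE; 95% interval -1.80 to -0.60; edgeR adjusted p = 0.0100) and -0.36 (-0.97 to 0.25; edgeR adjusted p = 0.377) with L-2HG.

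Alkbh1, which acts on methylated adenine in transfer RNA, did not pass with either compound. The gene (ENSMUSG00000079036) lies on chromosome 12 from 87425840 to 87444017, minus strand. Alkbh1 was at 177, 177 and 162 CPM in the D-2HG libraries, 138, 122 and 152 CPM in the L-2HG libraries and 214, 165 and 195 CPM in the control libraries. All L-2HG libraries lay below all controls, and the D-2HG libraries overlapped them. The log2 difference was -0.16 (95% interval -0.54 to 0.23) with D-2HG and -0.47 (-0.86 to -0.08) with L-2HG (edgeR adjusted p = 0.543 and 0.0807). With DESeq2 size factors in place of the main scaling, Alkbh1 and Alkbh3 passed with L-2HG (log2 fold change -0.60 and -0.64; edgeR adjusted p = 0.0453 and 0.0480). That scaling put the median of all genes with L-2HG at -0.07, against 0.05 with the main one. Relative to these medians, Alkbh1 was at -0.53 and -0.52 and Alkbh3 at -0.58 under both scalings.

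**Figure D3:**
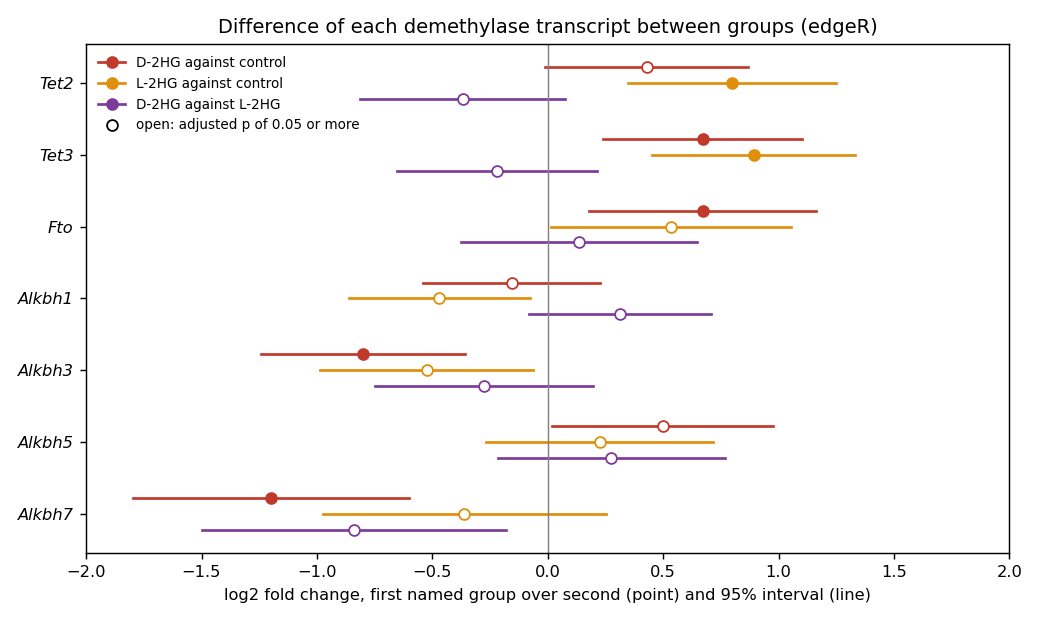
Log2 fold change (point) and 95% interval (line) of the 7 tested members in the 3 comparisons, each compound with control and then D-2HG with L-2HG, from top to bottom at each gene. Filled points passed at adjusted p under 0.05, and no point of the comparison between the compounds did.

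Some exons overlap those of other genes, and the settings of the counting are not given in the sources used here. Alkbh1 shares 122 bases with Slirp on the opposite strand (13 to 268 counts per library), and fragmentation of cDNA by Tn5, as in these libraries, does not mark strand. Alkbh3 shares 85 bases with its antisense gene Alkbh3os1, which held 1 to 4 counts, and 172 with Gm27027, which held 0 counts in each library. Tet2 shares 43 bases with Gm42567 (at most 1 count per library), and Fto shares 304 with Gm45427 and 144 with 4831440D22Rik (at most 3 and 5 counts per library). How reads of the shared bases were split is uncertain.

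The members moved together in part. Over the 9 libraries, Pearson's r of log2 CPM was 0.92 between Tet2 and Tet3, 0.88 between Fto and Alkbh5 and 0.79 between Alkbh3 and Alkbh7. It was -0.83 between Tet2 and Alkbh1 and -0.84 between Fto and Alkbh3. These values describe 9 libraries that share 3 groups and differ in depth, so that group differences enter them. Of 8434 genes compared, the profiles nearest to Tet2 were Lztfl1 (r = 0.99) and Mcph1 (0.98), and those nearest to Tet3 were Iqsec1 (0.99) and Nf1 (0.98). Marchf6 (0.99) and Tut7 (0.99) were nearest to Fto, and Eif3a (0.97) and Clip1 (0.96) to Alkbh5. Churc1 (0.98) and Chmp6 (0.98) were nearest to Alkbh3, and Psmd12 (0.99) and Mtap (0.98) to Alkbh1. Igtp (0.97), an interferon-inducible GTPase, and Prelid2 (0.96) were nearest to Alkbh7.

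The mirror-image forms were compared at the same dose and time, 20 mM and 6 h, in 7 comparisons, 1 per tested member. No member passed, by edgeR, DESeq2 or limma-voom, and in edgeR 1 had an unadjusted p under 0.05. Over all tested genes 0.303% passed, 0.0489% higher and 0.254% lower with D-2HG. Alkbh7 was that member, at 8.25 ± 0.34 CPM with D-2HG and 14.6 ± 1.97 CPM with L-2HG (SD, n = 3), a log2 difference of -0.84 (95% interval -1.50 to -0.18). Its p in edgeR's quasi-likelihood test was 0.0150, and 0.526 after adjustment. It was lower in 3 of 3 D-2HG libraries than in any L-2HG library. Tet2 was also lower in 3 of 3, with a log2 difference of -0.37 (-0.81 to 0.08), and Alkbh1 higher in 3 of 3, with one of 0.31 (-0.08 to 0.71) (edgeR adjusted p = 0.791 and 0.806). Ranges that did not overlap were thus found for 3 of 7 members and for 15.9% of all tested genes (7.78% higher and 8.13% lower with D-2HG). The 95% interval was -0.65 to 0.21 for Tet3, -0.38 to 0.65 for Fto, -0.75 to 0.20 for Alkbh3 and -0.22 to 0.77 for Alkbh5. A difference between the forms within these bounds is not excluded.

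The calls rest on particular control libraries, for the members and over all genes alike. Without control replicate 1, or without control replicate 3, none of the 6 calls was kept (edgeR adjusted p up to 0.161 and 0.192). Without control replicate 2 all 6 were kept, and Tet2 and Alkbh5 with D-2HG and Fto and Alkbh1 with L-2HG passed too (edgeR adjusted p = 0.0307, 0.0356, 0.0492 and 0.0124). Over all genes, calls with D-2HG went from 2279 to 450, 388 and 4257 without control replicate 1, 3 and 2, in that order. With L-2HG they went from 1828 to 177, 65 and 4108. Leaving out D-2HG replicate 1 or 2 ended the calls of Tet3 and Fto with D-2HG, and D-2HG replicate 3 those of Tet3, Fto and Alkbh3. Leaving out L-2HG replicate 1 ended the calls of Tet2 and Tet3 with L-2HG and of Fto with D-2HG. No direction of a called member turned in these fits. The fold changes of the called members ranged from 0.54 to 1.02 and from -1.38 to -0.70 on the log2 scale.

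**Figure D4:**
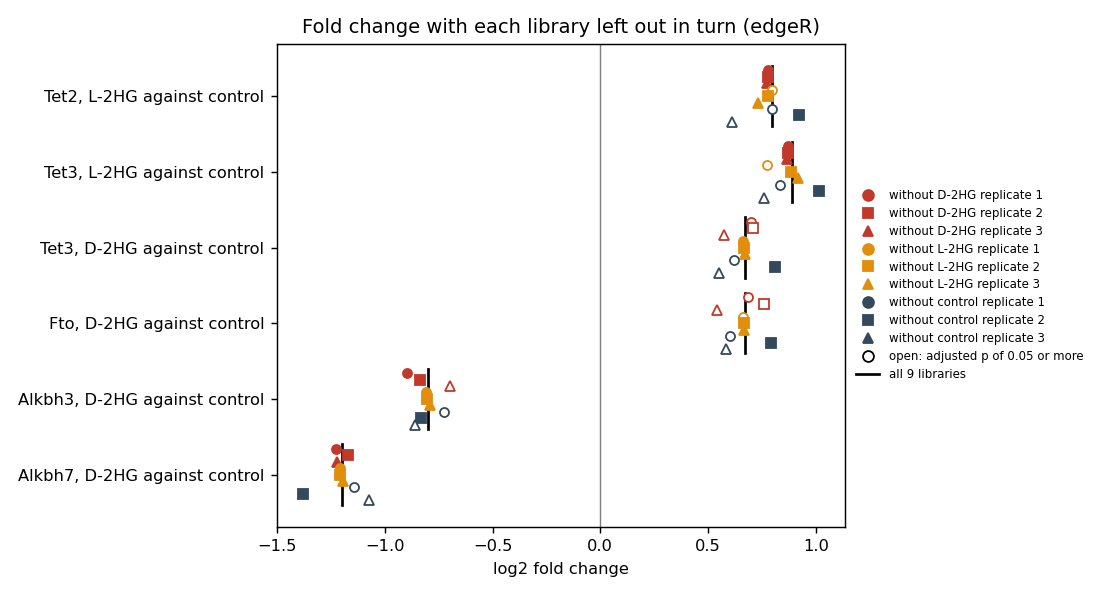
Log2 fold change of the 6 member calls when each of 9 libraries was left out, against that with all libraries (vertical lines). All 12 points without control replicate 1 or 3 are open, meaning an adjusted p of 0.05 or more, and the 6 without control replicate 2 are filled.

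Control replicate 2 differed from the mean of the other controls in the direction of the compounds for most members. The log2 difference (CPM + 0.5) was 0.47 for Tet2, 0.45 for Tet3, 0.41 for Fto, 0.39 for Alkbh5, -0.30 for Alkbh1 and -0.65 for Alkbh7, and it was -0.06 for Alkbh3. With the log2 satellite share as a term in the model, no member passed with D-2HG or L-2HG. The share did not overlap between L-2HG (6.71 to 24.4%) and control (0.910 to 5.35%), so the fit cannot fully separate it from the compound. Over all genes, 96 passed with D-2HG and 8 with L-2HG in that fit. The log2 fold changes then were 0.42 for Tet3, 0.22 for Fto, -0.67 for Alkbh3 and -0.89 for Alkbh7 with D-2HG, and 0.48 for Tet2 and 0.60 for Tet3 with L-2HG (edgeR adjusted p = 0.496, 0.800, 0.301, 0.358, 0.692 and 0.583).

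**Figure D5:**
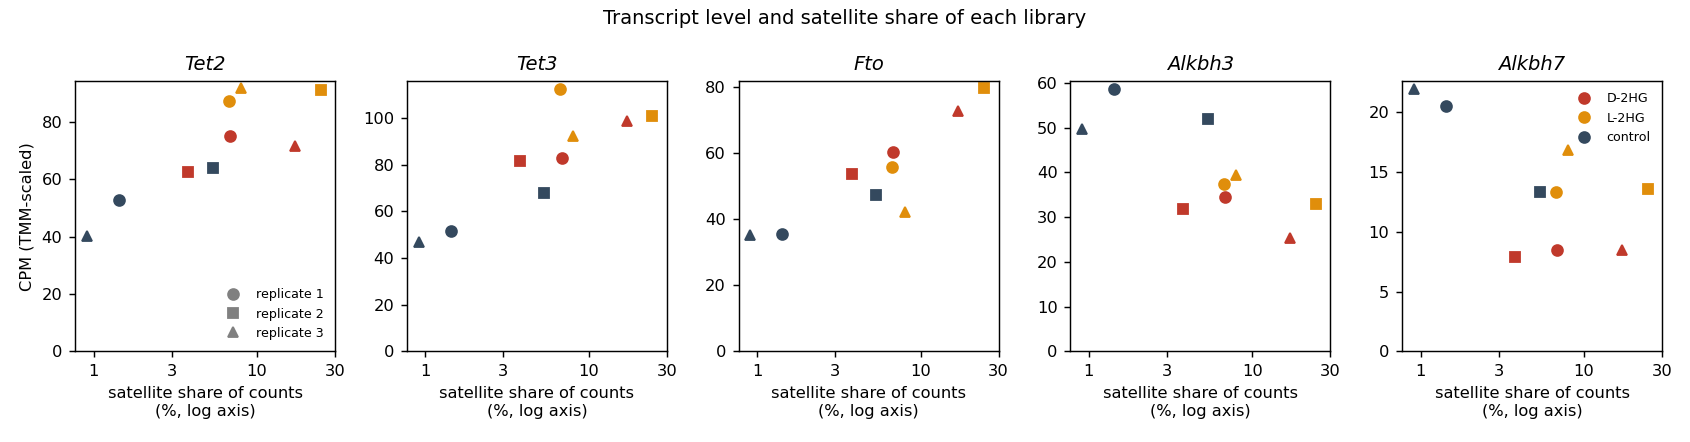
CPM of the 5 members that passed in a comparison (linear axis) against the share of counts in 2 satellite-like genes (%, log axis), with 1 symbol per library, coloured by group. Tet2, Tet3 and Fto were lowest, and Alkbh7 highest, in the controls with shares of 0.910 and 1.43%, and at shares above 3% Alkbh3 of control replicate 2 (52.0 CPM) lay above every library with a compound.

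Genes that work with these enzymes were followed as 7 lists. Of 53 listed genes 46 were tested. With D-2HG 7 rose and none was called lower by edgeR, where 11 were higher and 5 lower at an unadjusted p under 0.05, and 1 was called lower by DESeq2 and 9 by limma-voom. These are 15.2% of the 46, against 22.3% of all tested genes. With L-2HG 5 rose and 2 fell, again 15.2%, against 17.9% of all tested genes, while DESeq2 called 4 in each direction and limma-voom 14 higher and 7 lower. With both directions together, the lists were thus called by edgeR no more often than genes at large. By direction, the D-2HG calls were all higher, where 11.8% of all tested genes were higher and 10.5% lower. Over all genes limma-voom called 5615 with D-2HG and 5174 with L-2HG, and DESeq2 2205 and 2106. Of the 9 genes of DNA methylation and its readers, Dnmt1, Mbd1 and Dnmt3b rose with D-2HG and Dnmt1 and Uhrf1 rose with L-2HG, with medians of 0.34 and 0.50 on the log2 scale. Dnmt1, the maintenance methyltransferase, was at 50.1, 54.6 and 53.7 CPM with D-2HG, 53.6, 64.1 and 37.4 CPM with L-2HG and 26.8, 24.8 and 23.3 CPM in control. Control replicate 2 lay between the other controls, and the groups with a compound did not overlap with control (log2 fold change 1.08 and 1.00; edgeR adjusted p = 0.00504 and 0.0146). Mbd1, a reader of methylated DNA, rose by 1.10 and Dnmt3b, a de novo methyltransferase, by 0.82 with D-2HG (edgeR adjusted p = 0.00944 and 0.0233). Uhrf1, which guides the maintenance enzyme, was at 26.5 ± 6.17 CPM with L-2HG and 12.6 ± 4.01 CPM in control (SD, n = 3; log2 fold change 1.20; edgeR adjusted p = 0.0152).

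Of 2 tested TET partners, Ogt, whose product binds TET proteins and adds a sugar to other proteins, rose with both compounds. It was at 350 ± 87.7 CPM with D-2HG, 407 ± 97.3 CPM with L-2HG and 219 ± 51.2 CPM in control (SD, n = 3; log2 fold change 0.67 and 0.88; edgeR adjusted p = 0.0428 and 0.0204). Of 9 tested genes that act downstream of TET oxidation in base excision repair and its regulation, Gadd45g was the gene called, lower with L-2HG. It held 1 to 6 counts per library with L-2HG, 4 to 17 with D-2HG and 8 to 46 in control, and predicted background came to 15.4 to 32.4% of its L-2HG counts. It needed the control libraries, where it is high, to pass the count filter, so that a lower level with a compound is in part built into its being tested, and the call is not read further.

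Of 9 m6A writer genes, Virma and Rbm15b, both of the methyltransferase complex, rose with D-2HG. Virma was at 54.1 ± 15.9 CPM with D-2HG and 25.3 ± 7.46 CPM in control (SD, n = 3; log2 fold change 1.12; edgeR adjusted p = 0.0104). Rbm15b rose by 0.83 and 0.87 with D-2HG and L-2HG (edgeR adjusted p = 0.0294 and 0.0364). Wtap, the regulatory subunit, fell to 83.5 ± 29.1 CPM with L-2HG, against 141 ± 17.5 CPM in control (SD, n = 3; edgeR adjusted p = 0.0365). Of 7 tested m6A readers none passed with either compound by edgeR. At an unadjusted p under 0.05 edgeR had 2 readers with D-2HG and 3 with L-2HG, DESeq2 called 0 and 1, and limma-voom 4 and 4. Over all genes limma-voom called 5615 with D-2HG and 5174 with L-2HG, of 10235. Ythdc1 differed by 0.56 with D-2HG and Hnrnpa2b1 by -0.53 with L-2HG on the log2 scale (edgeR adjusted p = 0.0746 and 0.0644).

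Of 6 tested genes of alkylation repair, Ascc3, a helicase that works with ALKBH3 in human cells, rose with both compounds. It was at 89.2 ± 2.32 CPM with D-2HG, 107 ± 33.7 CPM with L-2HG and 55.8 ± 13.2 CPM in control (SD, n = 3; edgeR adjusted p = 0.0400 and 0.0203). None of the 4 further ALKBH genes passed by edgeR or DESeq2 in any comparison, while limma-voom called 2 with D-2HG and 1 with L-2HG, and in edgeR 1 had an unadjusted p under 0.05. Of 10235 genes, limma-voom called 5615 with D-2HG and 5174 with L-2HG. Alkbh8, a transfer RNA methyltransferase with an ALKBH domain, was at 50.9 ± 10.9 CPM with D-2HG and 34.6 ± 10.5 CPM in control (SD, n = 3; edgeR adjusted p = 0.0894). Alkbh6, which had the smallest p of this list with L-2HG, was at 65.9 ± 20.3 CPM with L-2HG and 83.5 ± 20.7 CPM in control (SD, n = 3; edgeR adjusted p = 0.393). The median log2 fold change of the further ALKBH genes was -0.24 with D-2HG and -0.11 with L-2HG, and that of alkylation repair was -0.33 and -0.27. It was 0.55 and 0.44 for the m6A readers, 0.03 and 0.05 for the writers, and -0.01 and -0.12 for the genes downstream of TET oxidation, against 0.04 and 0.05 over all tested genes. Between the mirror-image forms none of the 46 genes passed by edgeR, DESeq2 or limma-voom, and 1 had an unadjusted p under 0.05 in edgeR. That gene was Uhrf1, at 16.2 ± 2.10 CPM with D-2HG and 26.5 ± 6.17 CPM with L-2HG (SD, n = 3; edgeR adjusted p = 0.523). The gene of smallest p in each other list was Alkbh8, Mettl16, Ythdf1, Xrcc1, Ogt and Ascc3, with edgeR adjusted p of 0.846, 0.817, 0.863, 0.847, 0.921 and 0.920.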

How the data were processed

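RNA of 9 libraries, 3 groups of 3, was sequenced from oligo(dT)-primed cDNA cut by Tn5, per the labels' protocols. The authors deposited raw read counts per gene and a second table of counts divided by size factors (unit: signal). STAR 2.7.3a, featureCounts and mm10 are named in the submitters' processing notes, and the settings are not given in the sources used here. The values of the signal table, multiplied back, were whole reads within 0.001 for 100% of entries, and 0 differed from the deposited counts, so the count test on them calls the same genes.

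Counts were tested with edgeR 4.0.16 (R 4.3.3): TMM scaling, filterByExpr with a minimum count of 10, 1 robust quasi-likelihood fit over 9 libraries (6 residual degrees of freedom) and Benjamini-Hochberg adjustment over 10235 genes, called at an adjusted p under 0.05. The procedure was also run on simulated counts with 1 dispersion for all genes and no library differences in satellite share or background. That run does not bear on how such differences affect the calls. CPM use TMM-scaled totals, reads per kb use exon lengths from GENCODE M21, and 95% intervals come from the fit. Low counts limit Tet1 and Alkbh7 most, and reads are not independent molecules. Replicates of a group differed beyond sampling noise (chi-square per degree of freedom 6.07 to 42.3).

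All 8 members were named, with the list genes past the threshold (at most 4 per list and comparison) or else the 1 with the smallest p, and the 2 nearest profiles per member among genes of at least 5 CPM. The members and lists were chosen with earlier results of these data known. Alternatives were DESeq2 1.42.0, limma-voom 3.58.1 with quality weights, other scalings and filters, the groups compared alone, a replicate block, thinning, a satellite covariate, subtraction of predicted background, and each library left out. The test on reads recovered from the signal table was chosen after seeing the data.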

Additional observations from a re-analysis of the deposited data

How the results depend on the processing

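Counts of called genes moved more with the processing than directions did. With D-2HG, 4 members were called, against 2 with no count filter, 1 with counts thinned to the smallest library and 0 with the satellite covariate. Alkbh7 was tested in 19 of 21 alternatives. It fell below the filter with thinning and with a mean count of at least 50, so it could not be called there. With L-2HG, 2 were called, against 6 by limma-voom, 4 with DESeq2 size factors, 1 with the groups compared alone, 1 with thinning, 0 with no filter and 0 with the satellite covariate. Over all genes with D-2HG, limma-voom called 5615, no filter 1341, thinning 880 and the covariate 96. With L-2HG, limma-voom called 5174, thinning 735, background subtraction 694, the groups compared alone 427 and the covariate 8. Between the compounds 31 genes were called, against 158 by limma-voom, 76 with the covariate, 49 by DESeq2 and 11 with thinning. Of the pathway genes with D-2HG, limma-voom called 24, no filter 3, thinning 3 and the covariate 0, and with L-2HG limma-voom called 21, the groups compared alone 2 and the covariate 0.

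With each library left out, members called ranged from 0 to 6 with D-2HG and from 0 to 4 with L-2HG. All genes ranged from 388 to 4257 with D-2HG, from 65 to 4108 with L-2HG and from 10 to 60 between the compounds, and pathway genes from 1 to 17 and from 0 to 19 with D-2HG and L-2HG. The lowest counts with a compound came without control replicate 1 or 3 and the highest without control replicate 2.

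Values that changed sign, none of which passed in the comparison concerned, were 0.047 for Alkbh1 with D-2HG, and -0.018 for Fto, -0.19 for Alkbh5 and 0.0031 for Alkbh7 with L-2HG, all with the covariate. The others were -0.032 for Alkbh5 with L-2HG and no filter, 0.056 for Tet3 between the compounds with thinning, and -0.019 for Fto between the compounds without L-2HG replicate 3, where leaving out each library gave -0.019 to 0.34. The cause was not tested. Same-numbered replicates correlated at -0.17 to 0.28, so numbers were not taken as pairs, and the replicate block called 4, 2 and 0 members. Depth limits Alkbh7 (7 counts in L-2HG replicate 2) and Tet1.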
